A study of Mus musculus with 15 samples.

Results

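The genes of the CD3 complex and of T lineage commitment were followed through a series of Apc mutations in mouse haematopoietic progenitors. The list held 10 genes, Cd3d, Cd3e, Cd3g, Gata3, Bcl11b, Lck, Lat, Thy1, Cd5 and Cd2. Members were all probe sets that the platform's annotation pairs with 1 of these symbols and no other, whatever their values. That gave 12 probe sets of 9 genes among 45101 on the array, with 4 for Bcl11b and 1 for each of the other genes; Lck had no such probe set and is not analysed here. The question was whether a T lineage programme accompanied the induction of Lef1.

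T cells arise when progenitors enter the thymus and receive Notch signals, which switch on Tcf7 and Gata3 and then Bcl11b, the factor that fixes the lineage. The gamma, delta and epsilon chains of CD3, encoded by Cd3g, Cd3d and Cd3e, assemble with the T cell receptor and carry its signal, through the kinase Lck, to the adaptor Lat. Lef1 is a DNA-binding partner of beta-catenin and is at once a target of Wnt signalling and a factor of early T cells.

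Each of 15 arrays measured RNA of LSK cells, the lineage-negative, Sca-1 and Kit positive fraction of bone marrow that holds stem and multipotent progenitor cells, from C57BL6 mice. The Apc genotypes were wt/wt (arrays titled WT, 6), 15lox/15lox (KO, 3), 15lox/1638N (N1638, 3) and 15lox/1572T (T1572, 3); 1638N and 1572T are hypomorphic alleles and 15lox is recombined by Cre. Cells of all genotypes, wild type included, were kept in medium with thrombopoietin, stem cell factor and Flt3 ligand, were given Cre and GFP by the MSCV retrovirus, and were sorted for GFP before RNA of more than 10000 cells was taken. No age is given, and the labels do not say whether replicates came from separate animals, so p-values measure the spread between these samples, which may be technical.

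Values are log2 levels of a probe set. The wild-type group here is WT 4, 5 and 6. The mean of WT 1 to 3 lay within 0.05 of the mean of WT 4 to 6 at 96.7% of probe sets, against 20.3% to 25.7% for the 6 pairs among WT 4 to 6 and the mutant groups, so WT 1 to 3 are not used as independent controls. Array medians ran from 6.65 to 6.84. By Xist and Y-linked genes WT 4 to 6 were all male-type, whereas KO 2 and 3, N1638 3 and T1572 1 were female-type. Of 4 Apc probe sets 3 were lower on all 15lox/15lox arrays than in wild type (at 1420956_at 5.58, 6.10 and 5.69 against 9.72, 9.61 and 9.93) and 1435543_at was higher (10.46, 10.23 and 10.66 against 9.57, 9.61 and 9.85). The LSK genes Cd34, Cd48 and Flt3 had mean levels at percentiles 98.5, 95.7 and 94.2 of all probe sets, and Kit at 68.2 and 86.7 at its 2 probe sets. The files give no detection call, so 12 genes of other organs were read as a guide to background: 10 of them had 21 probe sets, whose median level was 4.81 in wild type, 4.59 in 15lox/15lox, 4.65 in 15lox/1638N and 4.74 in 15lox/1572T, with upper quartiles of 5.21 to 5.37. The highest of these probe sets read 9.95, 9.81, 9.65 and 9.81 in the same order, so the list is only a rough guide.

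No member passed the test as higher than wild type in any of the 3 mutant genotypes, and the calls were all lower. Gata3 was above wild type on every 15lox/15lox array and missed the threshold. In 15lox/15lox cells Cd3g and Lat fell, in 15lox/1638N cells the same 2 genes fell, and in 15lox/1572T cells Cd3g fell. Differences were tested with limma on the 12 arrays, with Benjamini-Hochberg adjustment over 45037 probe sets and a threshold of adjusted p under 0.05. The calls were thus 2 of 12 members in 15lox/15lox, where 1.50% of all probe sets were called (1.16% higher, 0.333% lower). They were 2 of 12 in 15lox/1638N, against 1.39% of all probe sets (0.553% higher, 0.839% lower), and 1 of 12 in 15lox/1572T, against 0.0289% (0.0111% higher, 0.0178% lower). At an unadjusted p under 0.05 by limma, 1 member was higher and 3 lower in 15lox/15lox, 0 higher and 4 lower in 15lox/1638N, and 0 higher and 5 lower in 15lox/1572T. No share of all probe sets at an unadjusted p is given here or below. Counts at that threshold therefore cannot be read as an excess.

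The median difference of the 12 members was -0.15 in 15lox/15lox, -0.20 in 15lox/1638N and -0.31 in 15lox/1572T, beside -0.03, -0.00033 and -0.006 over all probe sets. Every mutant array lay below every wild-type array at 4 members in 15lox/15lox (10.4% of all probe sets did so), at 4 in 15lox/1638N (14.2%) and at 6 in 15lox/1572T (7.89%). Every mutant array lay above at 2 members in 15lox/15lox (6.93% of all probe sets) and at 0 in 15lox/1638N and 15lox/1572T (12.3% and 4.74%). The 3 comparisons share the same wild-type arrays.

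**Figure D1:**
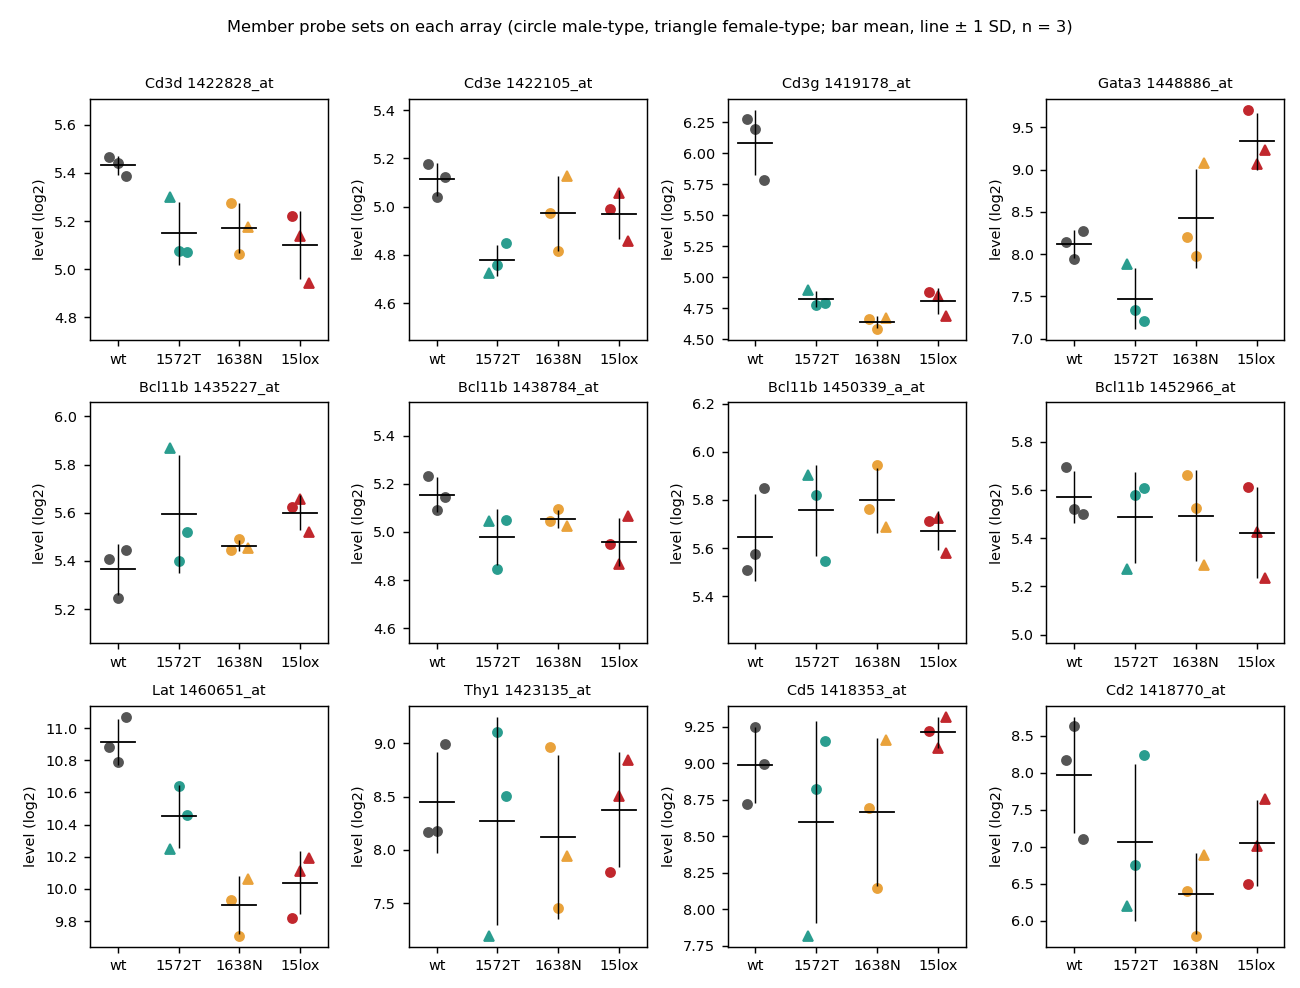
Log2 level (vertical axis) of each of the 12 member probe sets on the 12 arrays, by Apc genotype along the horizontal axis (wt for wt/wt, 1572T for 15lox/1572T, 1638N for 15lox/1638N, 15lox for 15lox/15lox). Circles are male-type and triangles female-type arrays, the bar is the mean and the line ± 1 SD (n = 3). For Cd3g the wild-type arrays read 5.79 to 6.28 and all 9 mutant arrays 4.58 to 4.90; for Gata3 the 15lox/15lox arrays read 9.06 to 9.71 and the 15lox/1572T arrays 7.20 to 7.88.

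Among the CD3 chains, Cd3g (1419178_at) was lower in all 3 mutant genotypes. It read 6.28, 6.20 and 5.79 in wild type, 4.88, 4.85 and 4.69 in 15lox/15lox, 4.67, 4.58 and 4.67 in 15lox/1638N, and 4.90, 4.77 and 4.80 in 15lox/1572T. The lowest wild-type array stood above the highest mutant array, and the mutant groups lay close together. The group means were 6.09 ± 0.26 in wild type, 4.81 ± 0.10 in 15lox/15lox, 4.64 ± 0.05 in 15lox/1638N and 4.82 ± 0.06 in 15lox/1572T (SD, n = 3).

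Cd3g thus fell by 1.28 ± 0.12 (SE) on the log2 scale in 15lox/15lox, 2.42-fold (limma, adjusted p = 0.000230). It fell by 1.45 ± 0.12 in 15lox/1638N, 2.73-fold (limma, adjusted p = 0.000267), and by 1.26 ± 0.12 in 15lox/1572T, 2.40-fold (limma, adjusted p = 0.00590). It was 1 of 7 probe sets (0.0155% of all) that passed as lower in all 3 genotypes. Its level went from percentile 43.1 of all probe sets in wild type to percentiles 22.0, 17.1 and 21.5 in 15lox/15lox, 15lox/1638N and 15lox/1572T. The mutant levels lay among those of the organ genes, where a probe set may read background, so the folds may understate the change and the sizes cannot be compared between genotypes. In bulk RNA, fewer cells that make a transcript and less of it per cell cannot be told apart.

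The Cd3g call in 15lox/1572T was lost when only the 2 groups compared were fitted (limma, adjusted p = 0.304) and with male-type arrays only (-1.30, adjusted p = 0.293), in a range of 0.00110 to 0.304 over 23 alternatives. In 15lox/15lox it was lost with male-type arrays only, which leaves 1 KO array (-1.20, limma adjusted p = 0.0839; range 4.21e-05 to 0.0839 over 23 alternatives).

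Cd3d (1422828_at) and Cd3e (1422105_at), the partner chains, did not pass in any genotype, and lay near the upper quartile of the organ genes or below it. Cd3d read 5.46, 5.44 and 5.39 in wild type, 5.22, 5.14 and 4.94 in 15lox/15lox, 5.27, 5.06 and 5.17 in 15lox/1638N, and 5.30, 5.08 and 5.07 in 15lox/1572T. All 9 mutant arrays were below all 3 wild-type arrays, by mean differences of -0.33, -0.26 and -0.28 in 15lox/15lox, 15lox/1638N and 15lox/1572T (limma, adjusted p = 0.232, 0.248 and 0.629). The intervals ran from -0.56 to -0.10, -0.49 to -0.03 and -0.51 to -0.05. With all 6 wild-type arrays as the control Cd3d passed in 15lox/15lox (-0.34, limma adjusted p = 0.0222) and 15lox/1638N (-0.27, adjusted p = 0.0455), in ranges over 23 alternatives of 0.0222 to 1.00 and 0.0455 to 0.573. That control counts WT 1 to 3 as independent arrays, so its adjusted p may be too small.

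Cd3e read 5.18, 5.04 and 5.12 in wild type, 4.99, 5.06 and 4.86 in 15lox/15lox, 4.97, 4.82 and 5.13 in 15lox/1638N, and 4.72, 4.76 and 4.85 in 15lox/1572T. The arrays of 15lox/1572T were all below wild type and those of the other 2 mutant genotypes overlapped it. The differences were -0.14, -0.14 and -0.34 in 15lox/15lox, 15lox/1638N and 15lox/1572T (limma, adjusted p = 0.701, 0.528 and 0.503). The 95% intervals were -0.36 to 0.08, -0.36 to 0.08 and -0.56 to -0.12.

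Cd3g and Cd3d are neighbours on mouse chromosome 9, on opposite strands, with starts 1355 bases apart. Cd3g passed the test and Cd3d did not, though Cd3d was also below wild type on every mutant array. Whether the changes of the 2 genes differ was not tested. The upstream sequences of both are shown, beside that of Gata3, which differed between mutant genotypes (next). Each is the 250 bases before the RefSeq start in GRCm38.p6, written 5′ to 3′ along the gene: chr9:44980432-44980681 on the minus strand for Cd3g, chr9:44981536-44981785 on the plus strand for Cd3d and chr2:9878601-9878850 on the minus strand for Gata3. Capitals mark matches, on either strand, to 4 words of the Lef/Tcf kind or 2 words of the GATA kind. The Lef/Tcf words were CTTTGAA, then CTTTGAT, then CTTTGTA and finally CTTTGTT. The GATA words were AGATAA and also TGATAA.
Cd3g: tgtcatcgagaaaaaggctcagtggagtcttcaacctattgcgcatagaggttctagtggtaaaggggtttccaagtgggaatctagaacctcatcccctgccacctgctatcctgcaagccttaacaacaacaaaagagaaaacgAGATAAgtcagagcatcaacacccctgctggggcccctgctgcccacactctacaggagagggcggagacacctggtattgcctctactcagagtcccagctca
Cd3d: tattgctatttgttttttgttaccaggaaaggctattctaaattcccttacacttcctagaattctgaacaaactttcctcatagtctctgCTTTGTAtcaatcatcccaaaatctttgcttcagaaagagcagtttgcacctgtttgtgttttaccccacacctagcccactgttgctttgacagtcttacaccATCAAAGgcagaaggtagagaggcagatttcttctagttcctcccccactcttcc
Gata3: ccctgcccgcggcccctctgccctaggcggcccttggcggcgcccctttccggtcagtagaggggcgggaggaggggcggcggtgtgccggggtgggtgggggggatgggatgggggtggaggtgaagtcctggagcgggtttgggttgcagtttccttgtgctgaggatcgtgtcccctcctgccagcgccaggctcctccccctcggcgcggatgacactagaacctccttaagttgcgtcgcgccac
The Cd3g sequence held AGATAA 104 bases before the start and no Lef/Tcf word. The Cd3d sequence held CTTTGTA 159 bases and, on the other strand, CTTTGAT 55 bases before the start, and the Gata3 sequence held none of these words. Of 32851 promoter sequences of this length, 14.8% held a Lef/Tcf word and 16.6% a GATA word. Of the 10 members 8 had an entry; those of Lat, Cd3e and Cd5 held neither kind of word, Bcl11b held CTTTGAA 89 bases before its start, and Lck held CTTTGTT in 1 of its 2 entries. A match is a description of letters, not of binding.

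Gata3 (1448886_at), the zinc finger factor needed from the first steps of T cell development, differed between 15lox/15lox and 15lox/1572T. It read 8.14, 7.94 and 8.28 in wild type, 9.71, 9.06 and 9.23 in 15lox/15lox, 8.21, 7.98 and 9.08 in 15lox/1638N, and 7.88, 7.34 and 7.20 in 15lox/1572T. All 15lox/15lox arrays were above, and all 15lox/1572T arrays below, the wild-type arrays, while in 15lox/1638N N1638 3 reached the level of 15lox/15lox and N1638 1 and 2 lay within the wild-type range. The order of the means was 15lox/15lox (9.33 ± 0.33), 15lox/1638N (8.42 ± 0.58), wild type (8.12 ± 0.17) and 15lox/1572T (7.47 ± 0.36; SD, n = 3).

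Gata3 was 1.86 ± 0.28 (SE) higher in 15lox/15lox than in 15lox/1572T, 3.62-fold (limma, adjusted p = 0.00670). Against wild type it did not pass in any genotype. The differences were 1.21 ± 0.28 in 15lox/15lox (95% interval 0.60 to 1.83; limma, adjusted p = 0.0678), 0.30 ± 0.28 in 15lox/1638N (-0.31 to 0.92; adjusted p = 0.645) and -0.64 ± 0.28 in 15lox/1572T (-1.26 to -0.03; adjusted p = 0.703). The neighbouring differences of 15lox/15lox and 15lox/1638N (0.91, interval 0.30 to 1.52, limma adjusted p = 0.437) and of 15lox/1638N and 15lox/1572T (0.95, 0.33 to 1.56, adjusted p = 0.445) did not pass either.

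The Gata3 difference of 15lox/15lox from wild type sat near the threshold: it passed in 8 of 23 alternatives, with limma adjusted p from 0.00385 (all 6 wild-type arrays) to 0.345 (array type as a covariate, 0.98). Of these 8, the fit on male-type arrays (1.59) rests on 1 KO array, which is assumed to vary like the other groups. That array is the highest (9.71), beside 7.94 to 8.28 on the male-type wild-type arrays. A fit with 1 KO array cannot settle the part of array type.

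Bcl11b, the factor that closes off other fates as cells commit to the T lineage, did not pass in any genotype at any of its 4 probe sets. Probe set 1435227_at had means of 5.37 ± 0.11 in wild type, 5.60 ± 0.07 in 15lox/15lox, 5.46 ± 0.02 in 15lox/1638N and 5.60 ± 0.24 in 15lox/1572T (SD, n = 3). Over the 4 probe sets and the 3 genotypes the differences from wild type ran from -0.20 to 0.23 (limma). Mean levels of the 4 lay at percentiles 26.4 to 38.3 of all probe sets. Their group means ran from 4.96 to 5.80, near the upper quartiles of the organ genes (5.21 to 5.37). These probe sets may therefore read background. The 15lox/15lox arrays were all above wild type at 1435227_at (0.23, 95% interval -0.03 to 0.49) and all below it at 1438784_at (-0.20, -0.40 to 0.01).

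Lat (1460651_at), the membrane adaptor phosphorylated after receptor engagement, which platelets and mast cells also use, fell in the 2 genotypes in which Lef1 rose. It read 10.88, 10.79 and 11.07 in wild type, 9.82, 10.11 and 10.19 in 15lox/15lox, 9.93, 9.71 and 10.06 in 15lox/1638N, and 10.25, 10.64 and 10.46 in 15lox/1572T. All mutant arrays were below wild type, with 15lox/1572T between wild type and the other 2 genotypes. Mean levels were 10.91 ± 0.14, 10.04 ± 0.20, 9.90 ± 0.18 and 10.45 ± 0.20 in that order (SD, n = 3).

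Lat fell by 0.87 ± 0.14 (SE) in 15lox/15lox, 1.83-fold (limma, adjusted p = 0.00910), and by 1.01 ± 0.14 in 15lox/1638N, 2.02-fold (adjusted p = 0.00689). In 15lox/1572T the difference was -0.46 ± 0.14 (95% interval -0.78 to -0.15; limma, adjusted p = 0.533). The 15lox/1572T level did not pass against either of the other mutants: 15lox/15lox differed from it by -0.41 (-0.72 to -0.10; limma, adjusted p = 0.412) and 15lox/1638N by -0.55 (-0.86 to -0.24; adjusted p = 0.332). The 15lox/15lox call ended without WT 6 (-0.80, limma adjusted p = 0.0508) and with male-type arrays only (-1.10, adjusted p = 0.0603), in a range of 0.000598 to 0.0603 over 23 alternatives.

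Markers of the blood cells that also use Lat are given beside it. In the list of 9 mast cell and basophil genes 0 of 13 probe sets passed in any genotype (limma), and its mean level per array was 8.58 to 9.19 in wild type, 8.50 to 8.99 in 15lox/15lox, 8.57 to 9.03 in 15lox/1638N and 9.29 to 9.69 in 15lox/1572T. In the list of 8 megakaryocyte and platelet genes, 7 of them with a probe set, 0 of 8 probe sets passed, with levels of 8.87 to 9.24, 8.83 to 9.37, 8.59 to 8.89 and 9.27 to 9.43. At an unadjusted p under 0.05, 3 mast cell probe sets were higher in 15lox/1572T, and 2 platelet probe sets were lower in 15lox/1638N. Over all probe sets 1.50%, 1.39% and 0.0289% were called in 15lox/15lox, 15lox/1638N and 15lox/1572T. A count of 0 in lists this short is therefore no result about these genes. The part of mast cells, basophils and platelets in the Lat result was not tested.

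The surface proteins of T lineage cells did not pass in any genotype, and their replicates spread widely. Thy1 (1423135_at), the glycoprotein Thy-1, had means of 8.44 ± 0.47 in wild type, 8.38 ± 0.54 in 15lox/15lox, 8.12 ± 0.77 in 15lox/1638N and 8.27 ± 0.98 in 15lox/1572T (SD, n = 3). Its differences of -0.07, -0.32 and -0.17 each carried an SE of 0.50, so that the interval in 15lox/15lox ran from -1.17 to 1.04. Cd5 (1418353_at), an inhibitory receptor of T cells and some B cells, differed by 0.22, -0.32 and -0.39 (SE 0.32; limma, adjusted p = 0.887, 0.674 and 0.862).

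Cd2 (1418770_at), an adhesion receptor of T and NK cells, read 8.18, 8.63 and 7.10 in wild type, 6.50, 7.01 and 7.65 in 15lox/15lox, 6.40, 5.80 and 6.89 in 15lox/1638N, and 6.19, 6.75 and 8.24 in 15lox/1572T. The arrays of 15lox/1638N were all below wild type and those of the other genotypes overlapped it. The differences were -0.92 (95% interval -2.10 to 0.27), -1.61 (-2.79 to -0.42) and -0.91 (-2.10 to 0.28), with limma adjusted p of 0.634, 0.182 and 0.801. With all 6 wild-type arrays the 15lox/1638N difference passed (-1.58, limma adjusted p = 0.0336; range over 23 alternatives 0.0336 to 0.473), but WT 1 to 3 are not independent controls.

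**Figure D2:**
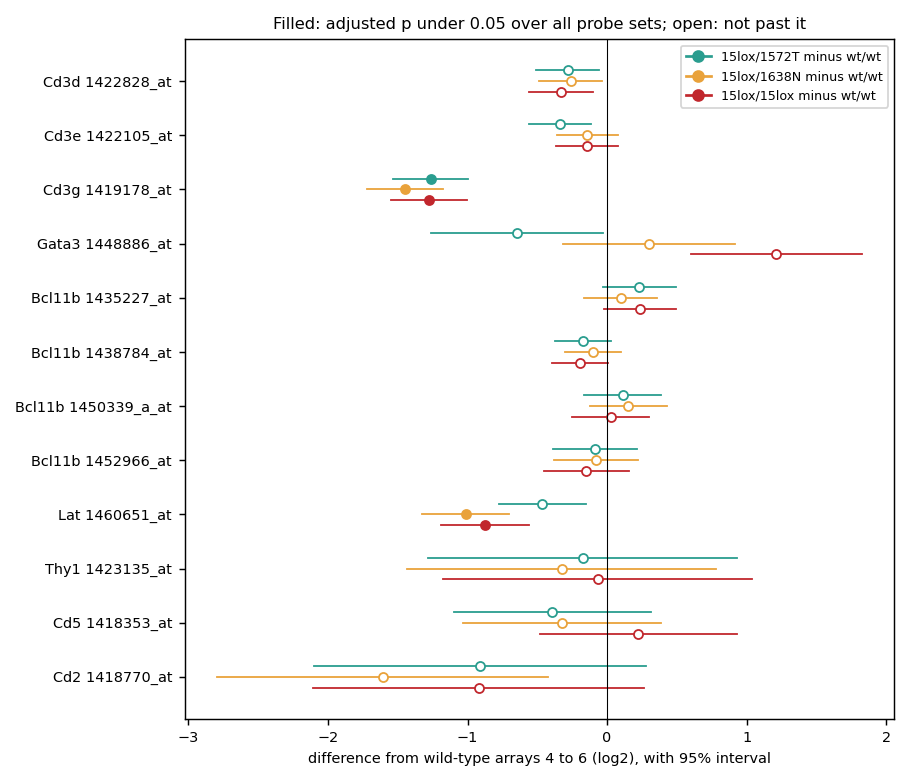
Difference of each mutant genotype from wild-type arrays 4 to 6 (horizontal axis, log2, with the 95% interval of the limma fit) for the 12 member probe sets (rows). Filled points passed an adjusted p under 0.05 over all probe sets: Cd3g at -1.28, -1.45 and -1.26, and Lat at -0.87 in 15lox/15lox and -1.01 in 15lox/1638N.

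Between mutant genotypes 1 of 12 members passed for 15lox/15lox against 15lox/1572T, Gata3, where 1.00% of all probe sets were called (0.950% higher, 0.0511% lower). For 15lox/15lox against 15lox/1638N it was 0 of 12 (0.187% of all probe sets; 1 higher and 0 lower at an unadjusted p under 0.05), and for 15lox/1638N against 15lox/1572T 0 of 12 (0.171%; 1 higher and 1 lower). For Cd3g the mutant pairs differed by 0.17 (-0.10 to 0.44), -0.01 (-0.28 to 0.26) and -0.18 (-0.45 to 0.09) for 15lox/15lox minus 15lox/1638N, 15lox/15lox minus 15lox/1572T and 15lox/1638N minus 15lox/1572T. In limma's F test over the 4 groups 3 of 12 members passed, Cd3g, Lat and Gata3, beside 1.38% of all probe sets.

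Lef1 and Axin2, an inhibitor of the pathway that Wnt signalling itself induces, were set beside the members. Lef1 (1454734_at) read 6.85, 5.96 and 6.91 in wild type, 11.22, 10.79 and 9.53 in 15lox/15lox, 10.15, 10.16 and 11.17 in 15lox/1638N, and 6.36, 6.12 and 6.31 in 15lox/1572T. It rose by 3.94 ± 0.42 (SE) in 15lox/15lox (limma, adjusted p = 0.000457) and by 3.92 ± 0.42 in 15lox/1638N (adjusted p = 0.00118), and its difference in 15lox/1572T was -0.31 ± 0.42 (adjusted p = 0.926). A second Lef1 probe set, 1421299_a_at, differed by 0.37, 0.16 and -0.20 and did not pass. Axin2 (1436845_at) rose by 4.77 ± 0.32 and 3.86 ± 0.32 in the same 2 genotypes (adjusted p = 1.87e-05 and 0.000227), with a difference of 1.20 ± 0.32 in 15lox/1572T (adjusted p = 0.446; 1.66, adjusted p = 0.0318, without T1572 1). At its other probe set, 1421341_at, Axin2 rose by 1.11 ± 0.21 in 15lox/15lox (limma, adjusted p = 0.0239) and differed by 0.82 and 0.23 in 15lox/1638N and 15lox/1572T (adjusted p = 0.0934 and 0.879). Tcf7 had no probe set of its symbol and is not analysed here.

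Set against Lef1, the members showed 3 arrangements, and no CD3 chain passed as higher. Cd3g read 4.77 to 4.90 in 15lox/1572T, where Lef1 lay at 6.12 to 6.36, and 4.58 to 4.88 in the genotypes where it lay at 9.53 to 11.22, all at levels of the organ genes. Lat had its lowest means in the 2 genotypes with high Lef1. Gata3 was high on the 3 15lox/15lox arrays and on N1638 3, the female-type 15lox/1638N array, with a Lef1 level of 11.17, and was 8.21 and 7.98 on the male-type N1638 1 and 2 at a Lef1 level of 10.15 and 10.16. Of the 6 arrays of these 2 genotypes, KO 3 had the lowest Lef1 (9.53) and a Gata3 level of 9.23. On KO 1 and KO 2 Gata3 read 9.71 and 9.06 at a Lef1 level of 11.22 and 10.79. Whether Gata3 follows Lef1 among these arrays was not tested.

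**Figure D3:**
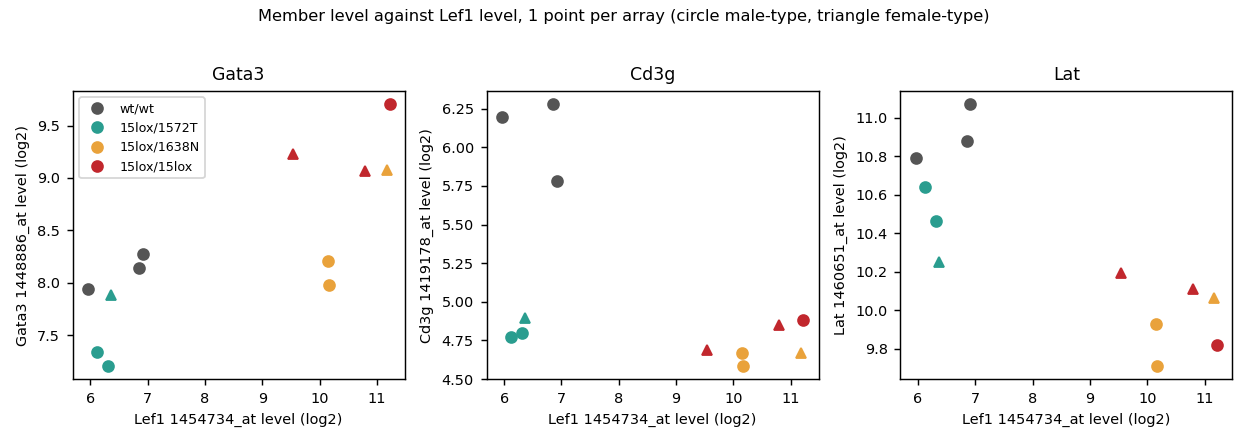
Log2 level of Gata3, Cd3g and Lat (vertical axes) against that of Lef1 probe set 1454734_at (horizontal axis), 1 point per array, coloured by Apc genotype; circles are male-type and triangles female-type arrays. Lef1 separates 15lox/15lox and 15lox/1638N (9.53 to 11.22) from wild type and 15lox/1572T (5.96 to 6.91), while Cd3g separates wild type (5.79 to 6.28) from all mutants (4.58 to 4.90).

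Other genes of the T lineage were read from a list of 22, of which 21 had 51 probe sets. In 15lox/15lox 3 of the 51 passed (5.88%, beside 1.50% of all probe sets), all higher and all of Tcf12, which encodes the E protein HEB. They were 1439619_at by 1.11 ± 0.18, 1446294_at by 0.66 ± 0.11 and 1421908_a_at by 0.62 ± 0.12 (SE; limma, adjusted p = 0.00927, 0.0112 and 0.0304). A further Tcf12 probe set at a high level, 1427670_a_at (percentile 90.6), differed by 0.44 and did not pass (limma, adjusted p = 0.0531). In 15lox/1638N and in 15lox/1572T 1 of the 51 passed (1.96%, beside 1.39% and 0.0289% of all probe sets). In both it was the probe set 1425484_at of Tox, a nuclear factor of T cell development, which fell by 0.85 ± 0.17 and 1.37 ± 0.17 (limma, adjusted p = 0.0354 and 0.0256). Every 15lox/15lox array was also below wild type at this probe set (-0.67; limma, adjusted p = 0.105). In 15lox/15lox, 15lox/1638N and 15lox/1572T Tox differed by -0.42, -0.49 and -0.56 at 1425483_at. At 1442039_at it differed by -0.42, -0.78 and -0.65, and neither probe set passed. Of these Tcf12 calls all ended with array type as a covariate and with male-type arrays only; 1439619_at passed in 19 of 22 alternatives, 1446294_at in 16 (not without WT 4 or KO 1) and 1421908_a_at in 10 (not without N1638 1 or any 1 wild-type or KO array). The Tox calls passed in 15 of 23 alternatives in 15lox/1638N and 12 of 23 in 15lox/1572T; both ended without any 1 wild-type array, T1572 2, N1638 1 or N1638 2, the first also without N1638 3 and the second also without T1572 1 or KO 2.

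From the same list Ptcra, Cd4, Cd247, Zap70, Ubash3a and Cd28, chosen after their values were seen, did not pass in any genotype. The pre-T alpha chain gene Ptcra (1421760_at) read 4.95, 4.90, 5.10 and 5.07 on average in wild type, 15lox/15lox, 15lox/1638N and 15lox/1572T. The coreceptor gene Cd4 read 5.02, 5.01, 4.99 and 4.98 at 1419696_at, the brighter of its 2 probe sets. Both genes lay below the upper quartiles of the organ genes, where a probe set may read background. The zeta chain gene Cd247 did not pass at any of its 4 probe sets, with the lowest adjusted p at 1426396_at, where the differences were -0.58, -0.48 and -0.34 (limma, adjusted p = 0.0615, 0.115 and 0.650). Zap70, the kinase that binds the phosphorylated chains, differed by 1.42, 0.52 and 1.30 in 15lox/15lox at its 3 probe sets and did not pass (limma, adjusted p = 0.0999, 0.532 and 0.193). Every 15lox/15lox array was above wild type at 1422701_at and 1440178_x_at of Zap70. In 15lox/15lox, 15lox/1638N and 15lox/1572T Ubash3a differed by 0.44, 0.67 and 0.09 at 1431698_at, and by 0.54, 0.61 and 0.06 at 1456065_at. Cd28 differed by 0.64, 0.35 and 0.02 at 1437025_at, and by 0.56, 0.51 and 0.05 at 1417597_at. Genes of the list that were lower are named on the same footing, and none passed. Rag1 differed by -0.72, -0.52 and -0.30, and Prkcq by -0.15, -0.69 and -0.26. Dntt differed by -0.34, -1.23 and -0.82 at 1450545_a_at and by less at its other probe sets. At an unadjusted p under 0.05 (limma), 8 of the 51 were higher and 8 lower in 15lox/15lox. In 15lox/1638N 3 were higher and 11 lower, and in 15lox/1572T 0 and 5. The median difference over the 51 probe sets was -0.05, -0.05 and -0.06. In 15lox/15lox every array lay above wild type at 17.6% of them and below at 13.7% (6.93% and 10.4% of all probe sets). In 15lox/1638N these shares were 13.7% and 29.4% (12.3% and 14.2% of all). In 15lox/1572T they were 0% and 9.80% (4.74% and 7.89% of all). Probe sets of the same gene count separately in these shares, as those of Tcf12 and Zap70 did above wild type in 15lox/15lox. The shares therefore cannot be read as an excess of genes.

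Of 7 Notch genes with 13 probe sets, none passed as higher. Dtx1, a ubiquitin ligase gene that Notch induces, fell in 15lox/15lox at both its probe sets, by 1.27 ± 0.23 at 1458643_at and 0.57 ± 0.12 at 1425822_a_at (SE; limma, adjusted p = 0.0178 and 0.0475), and in 15lox/1638N at 1458643_at by 1.12 ± 0.23 (adjusted p = 0.0414). Notch1, the receptor of thymic entrants, fell in 15lox/1638N at 1418634_at by 0.91 ± 0.15 (adjusted p = 0.0150). In 15lox/1572T 0 of 13 passed, beside 0.0289% of all probe sets, with 0 higher and 4 lower at an unadjusted p under 0.05. The Dtx1 calls ended with array type as a covariate and passed in 16 of 23 (1458643_at) and 5 of 22 (1425822_a_at) alternatives in 15lox/15lox and 12 of 23 in 15lox/1638N, and each ended without WT 5 or WT 6 and without several single mutant arrays. The Notch1 call passed in 19 of 23 and ended without any 1 wild-type array or N1638 2. Of 11 progenitor genes that are shut off as T cells commit, among them Spi1, Lmo2, Kit and Meis1, 0 of 25 probe sets passed in any genotype by limma. Over all probe sets 1.50%, 1.39% and 0.0289% were called in 15lox/15lox, 15lox/1638N and 15lox/1572T. A count of 0 in so short a list is therefore no result about these genes. At an unadjusted p under 0.05, 2, 5 and 1 of the 25 differed in 15lox/15lox, 15lox/1638N and 15lox/1572T.

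Markers of other lymphoid cells that use some of the member genes are given as measured. In the NK and innate lymphoid list (14 of 16 genes, 32 probe sets) Il7r, the interleukin 7 receptor that T cell progenitors also need, rose in 15lox/15lox by 4.11 ± 0.50 and 3.59 ± 0.46 at its 2 probe sets (SE; limma, adjusted p = 0.00127 and 0.00172). In 15lox/1638N it rose by 2.35 ± 0.50 at 1448575_at (adjusted p = 0.0499) and did not pass at 1448576_at. In 15lox/1572T, where Lef1 did not rise, Il7r was also higher at an unadjusted p under 0.05 (limma) but did not pass. The largest difference in the list there was 1.47. Il7r passed as higher in 15lox/15lox than in 15lox/1572T at both probe sets. Il2rb, the beta chain of the interleukin 2 receptor, fell at 1448759_at by 1.68 ± 0.20 in 15lox/15lox and 1.66 ± 0.20 in 15lox/1638N (limma, adjusted p = 0.00111 and 0.00285). At 1417546_at it fell by 0.53 ± 0.11 and 0.57 ± 0.11 (adjusted p = 0.0358 and 0.0290). The mean level of this list per array was 7.33 to 7.45 in wild type, 7.28 to 7.57 in 15lox/15lox, 6.93 to 7.32 in 15lox/1638N and 7.23 to 7.36 in 15lox/1572T.

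In the B lineage list (9 of 10 genes, 17 probe sets) Ebf1, the factor that starts the B cell programme, fell at 1416301_a_at by 1.83 ± 0.37 in 15lox/15lox and 2.35 ± 0.37 in 15lox/1638N (SE; limma, adjusted p = 0.0344 and 0.0128). The mean level of the list was 5.86 to 6.04 in wild type, 5.56 to 5.73 in 15lox/15lox, 5.50 to 5.70 in 15lox/1638N and 5.75 to 5.85 in 15lox/1572T. In 15lox/1572T 0 of the NK and innate lymphoid and 0 of the B lineage probe sets passed by limma, beside 0.0289% of all. At an unadjusted p under 0.05 the NK and innate lymphoid list had 2 higher and 10 lower in 15lox/15lox. It had 2 higher and 13 lower in 15lox/1638N, and 2 higher and 7 lower in 15lox/1572T. The B lineage list had 0 higher and 5 lower in 15lox/15lox and in 15lox/1638N, and 1 higher and 4 lower in 15lox/1572T. The Il7r call in 15lox/1638N passed in 8 of 23 alternatives and ended without any 1 array other than WT 6. The Ebf1 call passed in 13 of 23 in 15lox/15lox, where it ended without N1638 3 or any 1 wild-type or KO array, and in 20 of 23 in 15lox/1638N, where it ended without WT 5, WT 6 or N1638 2. The 1448759_at call of Il2rb and the Il7r calls in 15lox/15lox passed in at least 22 alternatives each, and 1417546_at in 8 of 21 in 15lox/15lox and 13 of 21 in 15lox/1638N. The part of these cell types in the Cd3g, Lat and Cd2 values was not tested.

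**Figure D4:**
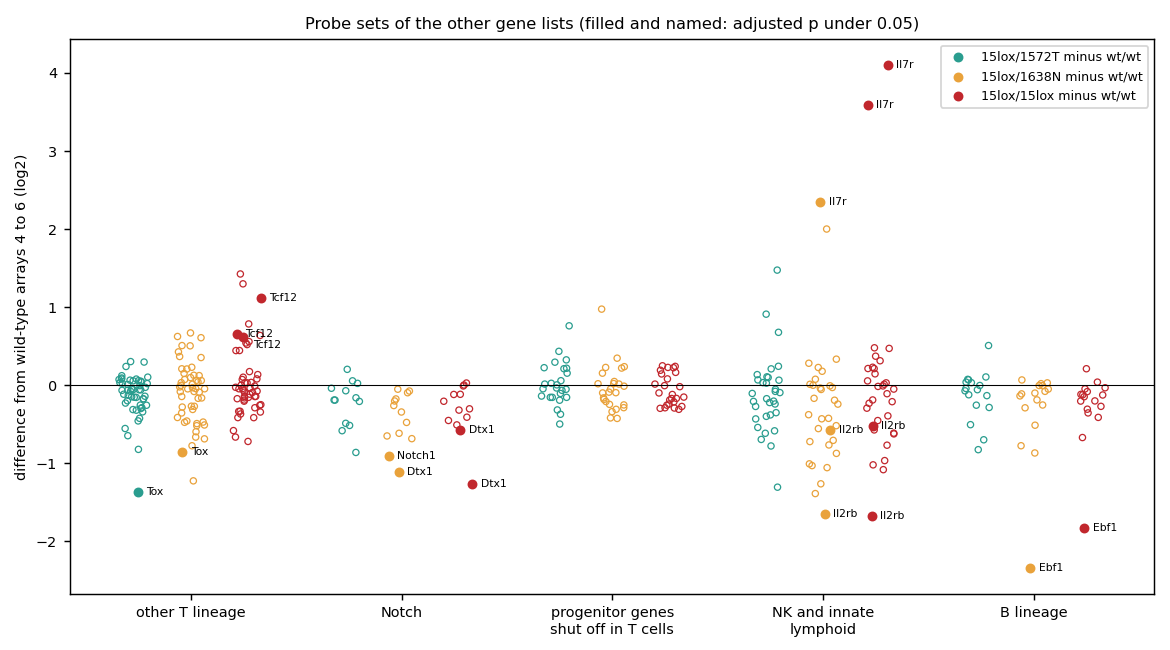
Difference from wild-type arrays 4 to 6 (vertical axis, log2) of each probe set in 5 gene lists (horizontal axis), coloured by mutant genotype. Filled and named points passed an adjusted p under 0.05 (limma): Il7r at 4.11 and 3.59 in 15lox/15lox and 2.35 in 15lox/1638N stand highest, and Ebf1 at -2.35 in 15lox/1638N lowest.

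The genes whose pattern was most like that of a member were taken by Pearson correlation over the 12 arrays, which share the 4 genotypes, as a description. Pacsin1 (r = 0.968), Rora at 1441085_at (0.965) and Crispld2 (0.953, with a Spearman rho of 0.42) were most like Cd3g. Rap1gap2 (0.959), Clstn3 (0.955) and Smim5 (0.933) were most like Lat, with Rap1gap2 at means of 8.52 in wild type, 6.98 in 15lox/15lox, 7.06 in 15lox/1638N and 7.88 in 15lox/1572T. Osbpl3 (0.952), Sh3bgrl2 (0.938) and Xkrx (0.937) were most like Gata3, with Xkrx at means of 8.32, 11.31, 9.71 and 7.75 in the same order.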

How the data were processed

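The deposited values are log2 probe set levels, per the range and quartiles of the deposited table, since no header names the unit. Per the submitters' processing notes RMA and the build mm9 were used, with no version, settings or role given in the sources used here. Nothing was renormalized and no level filter was applied. 64 array controls were left out, which left 45037 probe sets. Probe sets were named from the platform's annotation table, and only those with 1 symbol were used for named genes.

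Group means of 12 arrays (WT 4 to 6 and the 3 mutant groups) were fitted by lmFit and eBayes of limma 3.58.1 (R 4.3.3), without covariate and with 8 residual degrees of freedom, two-sided, with Benjamini-Hochberg adjustment over all probe sets tested within each contrast. SEs and 95% intervals come from that fit. The step was tested on simulated data. Array number limits the precision. Alternatives covered the wild-type arrays used, the groups fitted, a level filter (mean under 5), probe sets per gene, quantile normalization, eBayes options, array type by Xist and Y-linked genes, replicate block and each array left out; the fit on male-type arrays only was added after the data were seen.

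All 12 member probe sets, Lef1 and Axin2 are named whatever their values. From each other list up to 3 called probe sets per direction are named, and for each of the 3 members of lowest F test p the 3 most correlated genes. Ptcra, Cd4, Cd247, Zap70, Ubash3a, Cd28, Rag1, Prkcq and Dntt are named outside this rule, chosen after their values were seen. Members and lists were chosen with earlier results of these data known. Upstream sequences are RefSeq's, of GRCm38.p6.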

Additional observations from a re-analysis of the deposited data

Results flagged for a closer look

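Gata3 (1448886_at) differed between the effects of 2 Apc genotypes. It was above wild type on all 3 15lox/15lox arrays and below it on all 3 15lox/1572T arrays, and the test of the difference between these genotypes gave 1.86 on the log2 scale (limma, adjusted p = 0.00670). The difference passed in all 24 alternatives, with values from 1.67 to 2.43 and adjusted p from 0.000728 to 0.0381; with male-type arrays only, which gave 2.43, 15lox/15lox was 1 array.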

How the results depend on the processing

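The number of member probe sets called was 2, 2 and 1 of 12 in 15lox/15lox, 15lox/1638N and 15lox/1572T against wild type. With all 6 wild-type arrays as the control it was 4 in 15lox/15lox and 4 in 15lox/1638N, a fit that counts WT 1 to 3 as independent and may call too many. With only the 2 groups compared, and with male-type arrays only, it was 0 in 15lox/1572T, and with male-type arrays only it was 1 in 15lox/15lox (Gata3). Leaving out 1 array in turn gave 1 to 3 calls in 15lox/15lox (1 without WT 6), 2 in 15lox/1638N, 1 in 15lox/1572T and 1 to 3 in the F test (1 without WT 4 or WT 6). The calls over all probe sets behind the background shares moved further: 674, 627 and 13 became 1955, 3908 and 283 with all 6 wild-type arrays, 346, 392 and 9 with array type as a covariate, and 251, 1130 and 2 with male-type arrays only. Leaving out 1 array gave 387 to 753, 159 to 881 and 7 to 25. The causes were not tested. The labels do not say what the numbers in the titles mark, and not every same-numbered pair of mutant arrays deviated together: correlations of deviations ran from -0.07 to 0.38, against -0.35 to 0.20 for differently numbered arrays. Of 9 mutant arrays 7 matched best with their own number, a hint from the data and not the design that some share a factor, so the arrays were not treated as paired. With the replicate block on all 15 arrays the calls were 2, 2 and 1, and with the block on mutant arrays only 0, 1 and 0 between mutants. No mutant array shares a number with WT 4 to 6, so the block absorbs these wild-type arrays. The differences from wild type in the fit on 15 arrays therefore rest on WT 1 to 3, which are not independent controls. That fit, which is among the alternatives counted above, cannot show whether the calls against wild type hold. No member difference past the threshold changed sign under any of these settings.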
